A study of Mus musculus with 18 samples.

Results

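The genes described here encode 5 S100 proteins (S100a4, S100a6, S100a10, S100a11 and S100a13) and 5 annexins (Anxa1, Anxa2, Anxa3, Anxa4 and Anxa5). They were taken by symbol from a count matrix of 32285 genes, and all 10 were present and passed the filter on low counts. They were measured by RNA sequencing of microdissected kidney regions from male C57BL/6 mice in which Pkd1, the gene most often mutated in polycystic kidney disease, had been inactivated. Every sample carried the same genotype: a homozygously bred, tamoxifen-inducible and kidney-specific Cre, and loxP sites around exons 2 to 11 of Pkd1. Tamoxifen (12.5 mg/kg, by mouth) was given on postnatal days 18 and 19, and kidneys were taken when imaging showed mild cystic disease, so even the non-cystic regions are mutant tissue. No kidney without the deletion was among the samples. The 3 region types were non-cystic, F4/80-low cystic and F4/80-high cystic, F4/80 being the macrophage surface protein encoded by Adgre1. Each came from 3 kidneys with 2 libraries per kidney, which gave 6 libraries per region type and 18 in all. Kidneys 1 and 3 carry the age label 269 and kidney 2 carries 297, without a unit. Whether the kidneys came from separate mice is not stated, so p-values measure how the differences between region types vary among these kidneys.

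S100 proteins are small calcium sensors with paired EF-hand motifs. Most work as dimers that change shape when calcium binds and then attach to target proteins, and several are also released and signal to neighbouring cells. Annexins are larger proteins that bind acidic phospholipids in a calcium-dependent way and act in membrane repair, vesicle traffic and the resolution of inflammation. The families meet directly: S100A10 forms a tetramer with annexin A2, and S100A11 binds annexin A1. In the kidney, annexins and several S100 proteins are found in tubule epithelium, fibroblasts and immune cells, so a bulk library mixes their sources. In such a library, fewer cells of a type and less RNA per cell cannot be told apart.

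Library totals ran from 5366651 to 9188813 counts. Levels are given as CPM, a gene's counts relative to its library's total after trimmed-mean scaling, and fold changes as log2 values with their standard errors from edgeR's quasi-likelihood test on 9 sums, 1 per kidney and region type, with the kidney as a block. A gene was called at a Benjamini-Hochberg adjusted p below 0.05 over 16034 tested genes. Adgre1, the gene behind the region labels, averaged 2.56, 6.55 and 53.9 CPM in the non-cystic, F4/80-low and F4/80-high groups, the order in which 3 values are given throughout. Pkd1 counts averaged 6.31, 7.16 and 9.50 CPM and differed in no comparison (adjusted p = 0.903, 0.184 and 0.428 by edgeR). The matrix counts the whole gene and does not show the deleted exons. Of the labelled kidney tissue's defining markers, the 6 proximal tubule genes summed to 5375 to 9659 CPM in non-cystic libraries and to 40.4 to 1345 CPM in F4/80-high libraries. The library labelled F4/80-low, kidney 2, replicate 2 stood apart from its partner: its 6 injured tubule markers summed 4.77 log2 units higher. Calls in comparisons with F4/80-low regions and some correlations within pairs are given with and without it. Means and ratios include it.

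The upstream sequences of 4 genes are shown, picked by their results in F4/80-low against non-cystic regions, described below. S100a6, S100a11 and Anxa2 were the 3 genes called in F4/80-low regions, and Anxa4 was the only member whose fitted value there lay below that of non-cystic regions. Sequences are from RefSeq's table on GRCm38.p6, 5′ to 3′ on the strand of the gene, and stop before the first annotated base. Of the 10 genes, 8 were matched in that table, and S100a10 and Anxa3 were not. Anxa4 had another tabulated start, whose stretch (chr6:86775115-86775364, minus strand) is not printed. The printed stretches are chr3:90612644-90612881 (plus strand), chr3:93520246-93520487 (plus strand), chr9:69453433-69453619 (plus strand) and chr6:86793585-86793834 (minus strand). Capitals mark the letters TGANTCA, the AP-1 motif, which reads the same on both strands.
S100a6: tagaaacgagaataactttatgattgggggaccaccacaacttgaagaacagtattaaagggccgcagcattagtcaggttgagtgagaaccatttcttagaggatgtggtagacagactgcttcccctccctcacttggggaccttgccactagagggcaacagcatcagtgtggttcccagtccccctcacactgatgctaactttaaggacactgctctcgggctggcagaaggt
S100a11: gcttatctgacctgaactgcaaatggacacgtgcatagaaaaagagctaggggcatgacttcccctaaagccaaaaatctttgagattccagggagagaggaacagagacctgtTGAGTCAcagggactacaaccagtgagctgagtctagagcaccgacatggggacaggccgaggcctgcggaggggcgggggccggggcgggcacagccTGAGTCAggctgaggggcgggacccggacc
Anxa2: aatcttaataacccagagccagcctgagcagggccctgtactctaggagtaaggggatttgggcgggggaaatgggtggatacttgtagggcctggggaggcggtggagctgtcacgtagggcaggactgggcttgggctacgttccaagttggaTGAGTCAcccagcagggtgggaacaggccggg
Anxa4: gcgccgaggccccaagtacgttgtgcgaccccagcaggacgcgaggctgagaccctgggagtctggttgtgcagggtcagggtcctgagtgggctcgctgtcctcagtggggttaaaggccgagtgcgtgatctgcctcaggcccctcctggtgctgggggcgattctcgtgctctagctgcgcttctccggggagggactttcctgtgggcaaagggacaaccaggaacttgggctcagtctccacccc
In the 250 bases before the RefSeq start, the AP-1 letters occurred 2 times upstream of S100a11, starting 136 and 38 bases before the start, and 1 time upstream of Anxa2, 95 bases before it. No other matched member had them, and 6.75% of all 32851 tabulated promoters did. The GC box letters GGGCGG (either strand) occurred 3 times each upstream of S100a11 and Anxa2, and 32.7% of all promoters held at least 1. TATAAA (either strand) was found upstream of S100a4, Anxa1 and Anxa2, against 12.4% of all promoters. GGAATG, the TEAD letters, was found upstream of Anxa1 alone (12.6% of all), and TTCNNNGAA, the STAT letters, upstream of no matched member (7.02% of all). A match is a description of the letters, and no binding was measured.

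All 10 genes were higher in F4/80-high cystic than in non-cystic regions, where 19.7% of tested genes were called higher and 19.5% lower. Their median log2 fold change was 2.33, against 0.04 over all tested genes. The members were chosen with earlier results of these data known, so their counts here and below are descriptions of the list and not tests of it. Genes of these families off the list were mixed. Of 6 other S100 genes tested 3 were higher and 2 lower, and of 6 other annexins 2 were higher and 1 lower. In 9 of the 10, every F4/80-high library lay above every non-cystic library, a separation seen in that direction in 14.3% of tested genes. Counted together, the 10 genes held 0.0253% to 0.0553% of the counts of a non-cystic library, 0.0517% to 0.126% of an F4/80-low library and 0.227% to 0.436% of an F4/80-high library, ranges that overlap only between the former 2 groups. The mitochondrial share of counts moved in the same order, from 10.6% to 15.4%, then 7.71% to 11.1%, then 1.49% to 4.06%, and that of Spp1 alone was 0.0433% to 0.332%, 0.241% to 8.90% and 6.41% to 14.1%. Their part in the results was not tested. When libraries were scaled by total counts, the median of all genes in this comparison moved to 0.65 and the share of calls that were higher rose from 50.2% to 81.9%. All 10 genes were called higher under that scaling too, and all 10 had an unadjusted p below 0.05, as did 47.7% of tested genes. Without kidney 1 and without kidney 2, Anxa4 was no longer called, and S100a4 was not called from the libraries labelled replicate 2 alone.

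**Figure D1:**
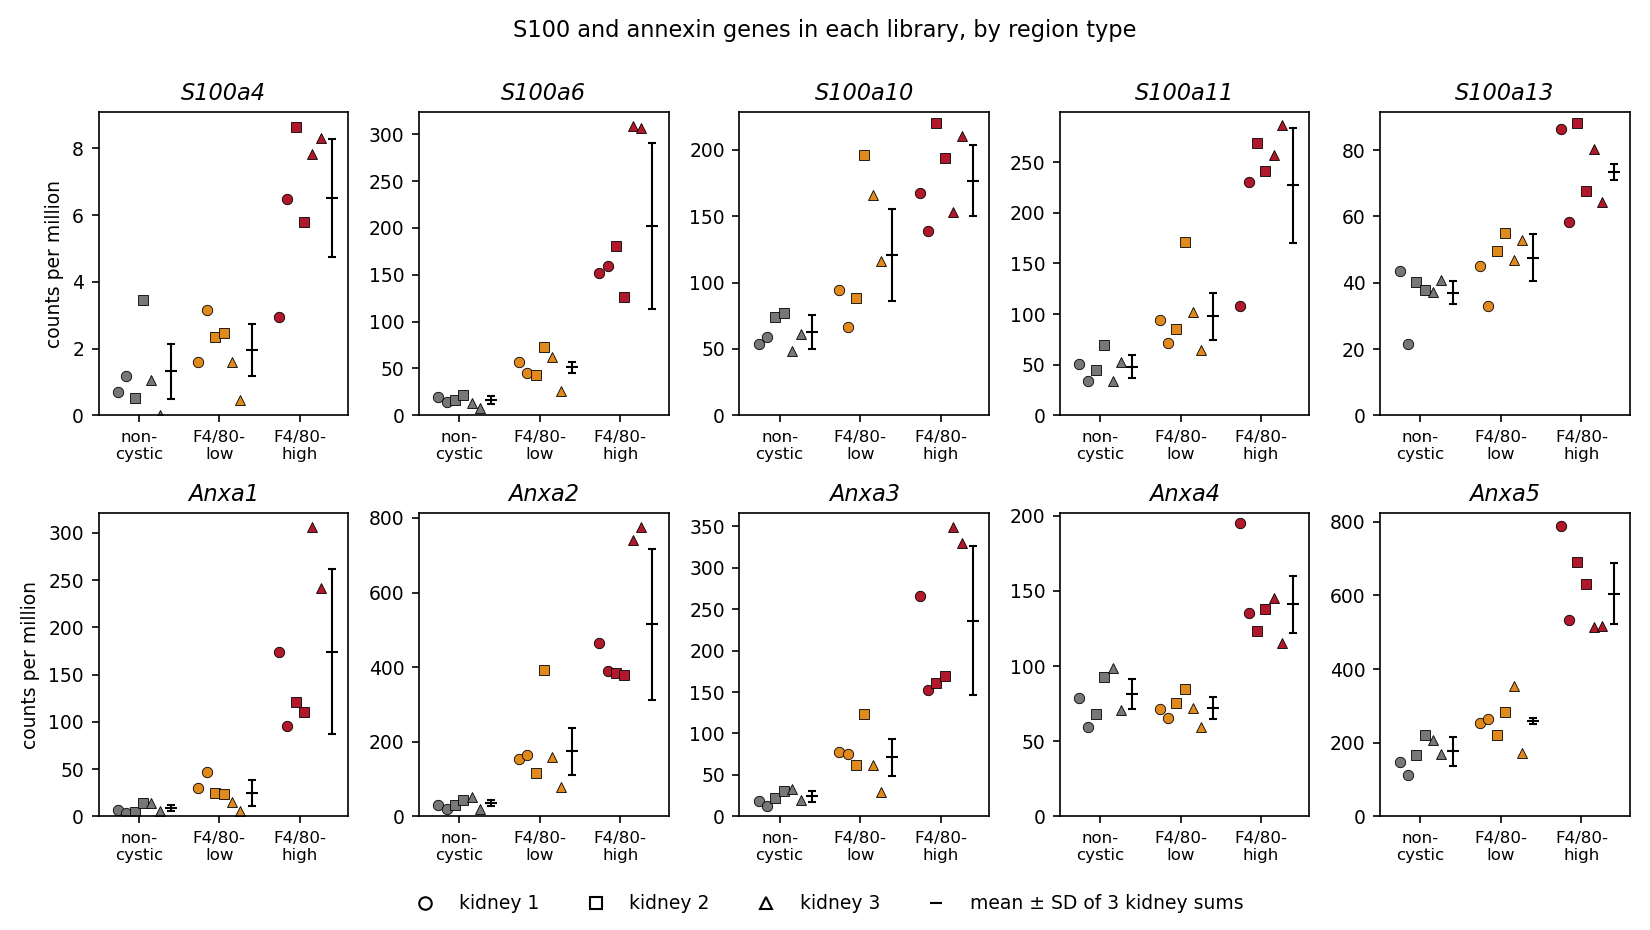
CPM (vertical axis, from 0) of the 10 genes in each of the 18 libraries, by region type; marker shapes give the kidney, and bars the mean ± SD of the 3 kidney sums. In 9 panels, all but S100a4, the F4/80-high libraries lie above the non-cystic ones.

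S100a6, known as calcyclin and linked to proliferation, gave the steepest rise among the S100 members. Its level ran from 8.18 to 21.2 CPM (median 15.3) in non-cystic libraries. F4/80-low libraries held 26.2 to 72.6 CPM (median 50.9), and F4/80-high libraries held 126.6 to 308.5 (median 169.8). The 3 ranges did not overlap, and both kidney 3 libraries of the F4/80-high regions were the highest, at 308.5 and 306.2 CPM. The log2 fold change in F4/80-high against non-cystic regions was 3.63 ± 0.36, 12.4 times higher (adjusted p = 0.000179 by edgeR).

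S100a4, called fibroblast-specific protein and also made by macrophages, had the lowest level of the 10. The non-cystic library of kidney 3, replicate 2 had 0 counts, which allows up to 0.682 CPM (3 counts), and the highest had 3.45 CPM (median 0.882). F4/80-low libraries held 0.449 to 3.15 CPM (median 1.98) and the F4/80-high group 2.96 to 8.65 (median 7.16), so all neighbouring ranges overlapped. The rise in F4/80-high against non-cystic regions was 2.41 ± 0.47 (adjusted p = 0.00343 by edgeR), and it rests on sums of 51 and 372 counts over the 6 libraries of each. Its exons share 302 bases on the same strand with another annotated gene model. That model has no row in the matrix, and whether reads from it were counted for S100a4 is not known.

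S100a11, or calgizzarin, which works with annexin A1 and annexin A2 at damaged membranes, ran from 33.7 to 69.9 CPM (median 48.2) in non-cystic libraries. It reached 64.8 to 171.1 CPM (median 89.6) where F4/80 was low and 107.5 to 286.8 (median 249.2) where it was high. The lowest F4/80-high value, kidney 1 replicate 1, fell inside the F4/80-low range while the next lowest was 230.8 CPM. The rise from non-cystic to F4/80-high was 2.24 ± 0.21 (adjusted p = 0.000104 by edgeR).

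S100a10, the partner of annexin A2 known as p11, began high and rose less. Its non-cystic libraries held 48.4 to 77.1 CPM (median 60.0), its F4/80-low libraries 66.6 to 195.7 (median 105.5) and its F4/80-high libraries 138.6 to 219.8 (median 180.3). The F4/80-low range overlapped both others. The F4/80-high against non-cystic change was 1.495 ± 0.21 (adjusted p = 0.000645 by edgeR). S100a13, which carries fibroblast growth factor 1 out of cells by a route that bypasses the secretory pathway, ran from 21.6 to 43.4 CPM (median 39.0), then 33.0 to 55.0 (median 48.2), then 58.5 to 88.1 (median 74.0). Only its F4/80-high range stood clear of the others, and the rise over non-cystic regions was 0.99 ± 0.15 (adjusted p = 0.00095 by edgeR).

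Among the annexins, Anxa1 and Anxa2 moved furthest. Anxa1 encodes a glucocorticoid-induced protein that limits neutrophil recruitment through formyl peptide receptors. It ran from 3.35 to 13.8 CPM (median 5.82) in non-cystic libraries. The F4/80-low group held 5.09 to 47.1 CPM (median 24.4), and the F4/80-high group held 95.4 to 305.8 (median 147.3). Only the F4/80-high libraries were set apart. The fold change of 4.28 ± 0.67 in log2, 19.5 times higher (adjusted p = 0.0033 by edgeR), was the largest among the 10 genes and also carried the largest standard error in that comparison.

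Anxa2, which assembles plasminogen and its activators at the cell surface, ran from 18.6 to 50.4 CPM (median 30.1) in the non-cystic group and from 77.4 to 393.5 (median 156.4) where F4/80 was low. F4/80-high libraries ran from 378.3 to 775.3 CPM (median 426.4). A single F4/80-low library, kidney 2 replicate 2 at 393.5 CPM, reached into the F4/80-high range; its partner had 116.3 CPM. The F4/80-high against non-cystic change was 3.90 ± 0.37 (adjusted p = 0.000106 by edgeR). An antisense gene model overlaps 98 exon bases of Anxa2, and the library kit does not mark the strand.

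Anxa3 ran from 12.7 to 33.1 CPM (median 20.8), then from 28.9 to 124.0 (median 68.7), then from 152.0 to 349.3 (median 217.4). Its non-cystic and F4/80-low ranges overlapped, and its F4/80-high libraries were above all others. The F4/80-high against non-cystic change was 3.31 ± 0.39 (adjusted p = 0.000427 by edgeR). Another gene model on the same strand shares 112 of the Anxa3 exon bases and has no row in the matrix. Anxa5, the phosphatidylserine binder used to stain dying cells, had the highest mean annexin level in each region type on the CPM scale. In kidney 3 of the F4/80-high regions Anxa2 was higher, at 747.4 against 509.3 CPM. The libraries held 110.9 to 221.5 CPM of Anxa5 (median 167.1), then 170.9 to 352.7 (median 259.3), then 514.5 to 789.7 (median 581.0). The F4/80-high group stood clear of the others, with a rise of 1.79 ± 0.25 over non-cystic regions (adjusted p = 0.000667 by edgeR).

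Anxa4, an annexin of epithelial cells, was the exception in its order. It ran from 59.3 to 98.7 CPM (median 74.6) in non-cystic libraries, and the F4/80-low range of 59.7 to 84.9 (median 71.7) lay inside that. F4/80-high libraries ran from 115.1 to 195.1 CPM (median 136.6), above both. Its rise over non-cystic regions, 0.80 ± 0.19, was the smallest of the 10 (adjusted p = 0.00838 by edgeR), and 75 of its exon bases overlap a gene model on the opposite strand.

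The question of what changes where cysts are present with little F4/80 signal was addressed by the F4/80-low against non-cystic comparison. Of the 10 genes 3 were called, all higher: Anxa2 (2.35 ± 0.35, adjusted p = 0.0137), S100a6 (1.66 ± 0.33, adjusted p = 0.0481) and S100a11 (1.02 ± 0.21, adjusted p = 0.0441, all by edgeR). Across all tested genes 1.51% were called higher and 0.0249% lower, while 11.7% had an unadjusted p below 0.05, as did 8 of the 10 genes. The median log2 fold change of the 10 was 0.97, against 0.00 over all genes. For Anxa2 and S100a6, every F4/80-low library lay above every non-cystic library, which held in that direction for 1.78% of tested genes.

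The other 7 genes did not pass the threshold in F4/80-low regions. S100a10 (0.93 ± 0.21, adjusted p = 0.0653) and Anxa3 (1.62 ± 0.37, adjusted p = 0.0805) came closest by edgeR. The Anxa1 value of 1.52 ± 0.63 (adjusted p = 0.424) hid kidneys that disagreed: the differences were 2.93 in kidney 1, 1.25 in kidney 2 and -0.08 in kidney 3. S100a4 (0.63 ± 0.48), Anxa5 (0.57 ± 0.24) and S100a13 (0.36 ± 0.15) had positive values with adjusted p = 0.727, 0.396 and 0.388, and Anxa4 had -0.18 ± 0.19 (adjusted p = 0.833). A call missed here does not show that a gene was unchanged.

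These 3 calls were close to the threshold. The call on S100a6 was lost in 19 of 34 alternative settings and that on S100a11 in 17, while Anxa2 lost its call in 3. Without the kidney as a block S100a11 missed the threshold (adjusted p = 0.0733) and Anxa3 passed it (adjusted p = 0.0473, both by edgeR). Without the F4/80-low library of kidney 2, replicate 2, Anxa2 alone was called, at 1.96 (adjusted p = 0.0403), and S100a6 and S100a11 gave 1.53 and 0.84 (adjusted p = 0.119 and 0.164, all by edgeR). Without kidney 1, or without the F4/80-low library of kidney 3, replicate 1, no member was called, although the fitted direction of every member was kept.

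**Figure D2:**
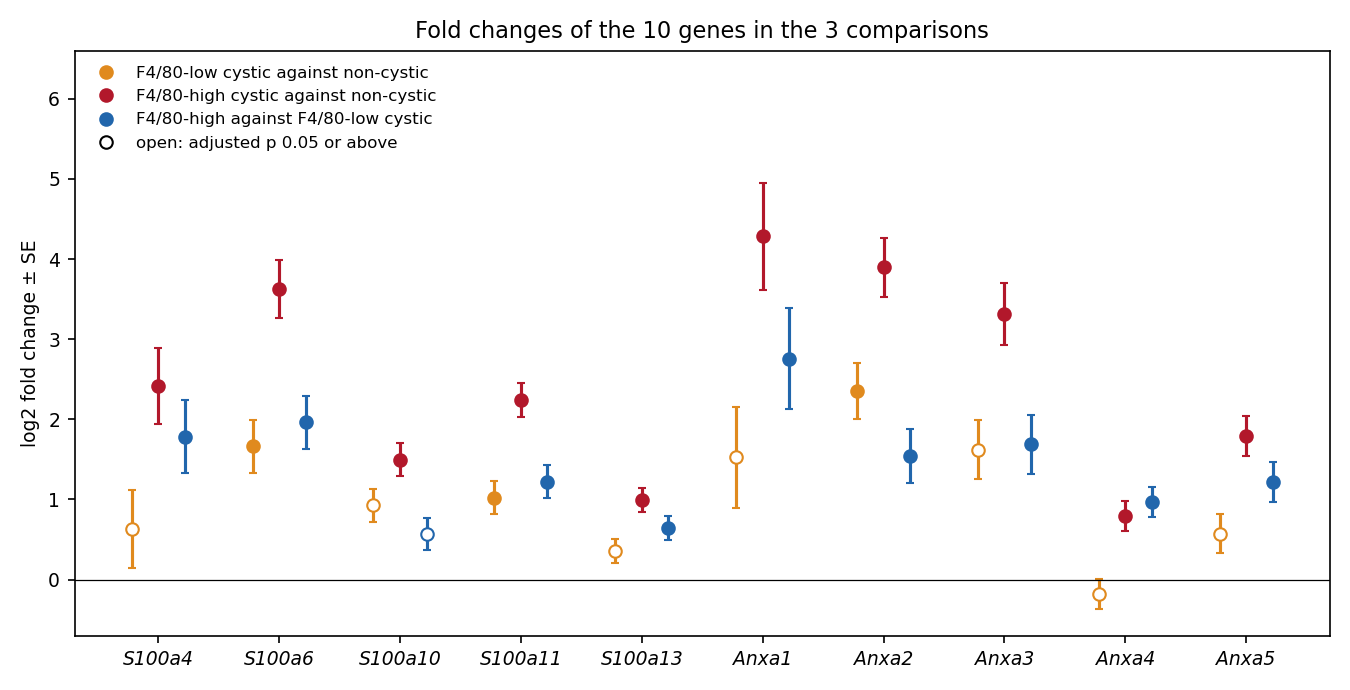
Log2 fold change (vertical axis) with its standard error for the 10 genes in the 3 comparisons; filled points have an adjusted p below 0.05. Anxa2, S100a6 and S100a11 are the filled points of the F4/80-low against non-cystic comparison, and Anxa4 has the only value below 0.

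Cystic regions with high and low F4/80 signal were compared to ask what differs between cystic tissue rich and poor in macrophages. Of the 10 genes 9 were called, all higher in F4/80-high regions, where 10.3% of tested genes were called higher and 14.0% lower. The values ran from 2.76 ± 0.64 for Anxa1 (adjusted p = 0.0242) through 1.96 ± 0.33 for S100a6 (adjusted p = 0.00467), 1.78 ± 0.46 for S100a4 (adjusted p = 0.0203) and 1.69 ± 0.37 for Anxa3 (adjusted p = 0.0127) by edgeR. Anxa2 differed by 1.54 ± 0.34 (adjusted p = 0.0117), and S100a11 and Anxa5 each by 1.22, with SE 0.21 and 0.25 (adjusted p = 0.0039 and 0.00794). Anxa4, with no called change in F4/80-low regions, was 0.97 ± 0.19 higher here (adjusted p = 0.00672), and S100a13 was 0.64 ± 0.15 higher (adjusted p = 0.014). S100a10, at 0.57 ± 0.20, missed the threshold (adjusted p = 0.0693).

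For 6 of the 10 genes (S100a6, S100a13, Anxa1, Anxa3, Anxa4 and Anxa5) every F4/80-high library was above every F4/80-low library, against 7.35% of all tested genes. All 10 had an unadjusted p below 0.05, as did 37.6% of tested genes. Scaling by total counts moved the median of all genes in this comparison from 0.04 to 0.52 and the share of calls that were higher from 42.3% to 79.0%, and upper-quartile scaling moved that share to 53.1%. S100a10 passed the threshold under both. Without kidney 1, 3 of the 10 remained called (S100a6, S100a11 and Anxa1), and without the F4/80-low library of kidney 2, replicate 2, all 10 were.

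Whether a gene changed more at the first step or at the second was tested as a contrast, the step from F4/80-low to F4/80-high minus the step from non-cystic to F4/80-low. None of the 10 passed (0 genes were called higher and 0.0249% of tested genes lower by edgeR). Only Anxa4 had an unadjusted p below 0.05 (0.00634, adjusted p = 0.218 by edgeR, against 12.1% of tested genes under 0.05). Its value was 1.15 log2 units in favour of the second step, and it was called in 3 fits that used the 18 libraries singly. Anxa2 had the most negative value, -0.81, and S100a10 -0.36. The region types came from the same 3 kidneys, so the steps are not an order in time and are given as values only.

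Levels can be compared between genes only after division by exon length. On the scale of CPM per kilobase, Anxa5 (99.1 ± 21.7, SD, n = 3 kidneys) and S100a11 (94.1 ± 21.5) led in non-cystic regions and did not differ beyond their spread. S100a13 (51.8 ± 4.94) and S100a10 (51.7 ± 10.6) followed, also overlapping, then Anxa4 (17.5 ± 2.14) and S100a6 (11.8 ± 3.11). Anxa2 (9.32 ± 2.23), Anxa3 (6.56 ± 1.98), Anxa1 (2.99 ± 1.12) and S100a4 (2.25 ± 1.44) were lowest, with overlapping ranges between S100a6 and Anxa2, Anxa2 and Anxa3, and Anxa1 and S100a4.

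The order changed with the region. In F4/80-low regions S100a11 (191.4 ± 45.5) was above Anxa5 (146.2 ± 4.75) in all 3 kidneys without overlap, and Anxa2 (46.7 ± 16.7) and S100a6 (37.4 ± 4.28) stood above Anxa4 (15.5 ± 1.54). In F4/80-high regions S100a11 (444.3 ± 111) and Anxa5 (340.3 ± 46.5) led again and overlapped. S100a6 (147.7 ± 64.7), S100a10 (145.9 ± 21.9) and Anxa2 (138.0 ± 54.3) came next and could not be ordered beyond their spread, and the Anxa2 range also overlapped that of S100a13 (102.7 ± 3.45). Anxa3 (64.8 ± 24.7) and Anxa1 (59.8 ± 30.0), overlapping each other, then Anxa4 (30.4 ± 4.11) and S100a4 (11.1 ± 3.04) followed. S100a4 was lowest in all 3 region types.

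S100A10 and annexin A2 form a complex of equal parts, and their transcripts did not keep a fixed ratio. The S100a10 to Anxa2 ratio of CPM was 1.86 ± 0.49, 0.757 ± 0.38 and 0.378 ± 0.15 (SD, n = 3 kidneys). Kidney 1 went from 2.29 to 0.508 to 0.359, kidney 2 from 1.97 to 0.567 to 0.539 and kidney 3 from 1.33 to 1.20 to 0.236. Each kidney therefore had its highest ratio in non-cystic and its lowest in F4/80-high regions, and the ranges overlapped only between the cystic region types (0.508 to 1.20 against 0.236 to 0.539). Per kilobase of exon the ratios were 5.73 ± 1.501, 2.33 ± 1.18 and 1.16 ± 0.47. The kidney 2 value in F4/80-low regions includes replicate 2, at 195.7 CPM of S100a10 and 393.5 of Anxa2. Its partner had 88.1 and 116.3 CPM. No test was made: with 3 kidneys the smallest two-sided p of an exact paired permutation test is 0.25.

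**Figure D3:**
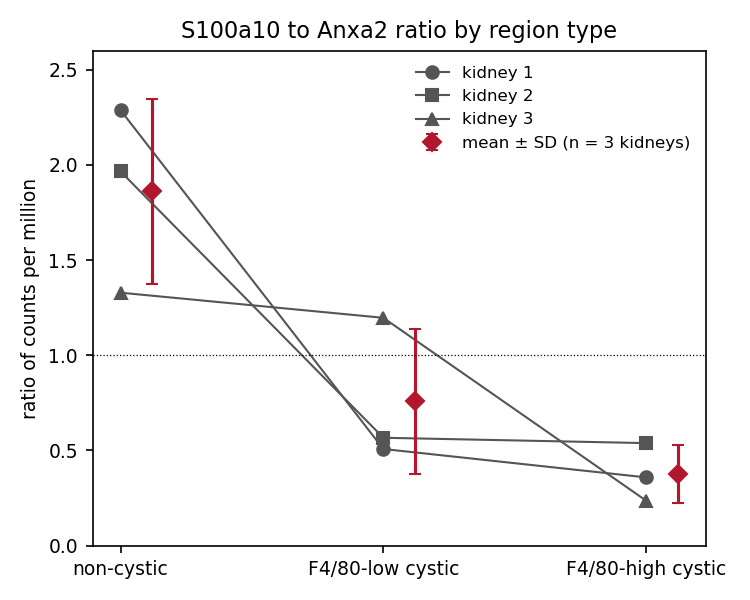
Ratio of S100a10 to Anxa2 CPM (vertical axis, from 0) in each kidney (grey lines) and as mean ± SD of 3 kidneys (red) by region type. The mean falls from 1.86 to 0.757 to 0.378, and the dotted line marks equal CPM.

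Of 11 other S100 genes on the list used, 6 passed the filter on low counts. None was called in F4/80-low against non-cystic regions by edgeR, where 3 had an unadjusted p below 0.05 (11.7% of all tested genes). In F4/80-high against non-cystic regions 3 were higher (S100a8, S100a14 and S100a16) and 2 were lower (S100a1 and S100g), beside 19.7% and 19.5% of all tested genes. S100a14, an epithelial S100 gene, went from 6 counts over all non-cystic libraries to 54 and then 338, a rise of 5.20 ± 0.66 (adjusted p = 0.000398). S100a16 rose by 0.84 ± 0.19 (adjusted p = 0.007). The genes removed by the filter were S100a3, S100a5, S100a7a, S100b and S100z, none with more than 26 counts over the 6 libraries of a region type, and S100a5 had 0 in non-cystic libraries.

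S100a1, a regulator of calcium handling in muscle that is also present in renal tubules, and S100g, the calcium carrier calbindin-D9k of the distal nephron, moved the other way. S100a1 averaged 873.9 ± 85.7, 702.9 ± 139.1 and 486.7 ± 199.3 CPM (SD, n = 3 kidneys). Its log2 change of -0.89 ± 0.30 (adjusted p = 0.037 by edgeR) became -0.30 (adjusted p = 0.245) when libraries were scaled by total counts, and the call was lost in 8 of 34 alternative settings. S100g averaged 3237, 531 and 320.3 CPM, with kidneys from 1566 to 4229 in non-cystic and from 70.5 to 750.1 in F4/80-high regions. Its single libraries overlapped, from 377.6 to 5043 CPM in the former and from 11.6 to 1422 in the latter. The change was -3.90 ± 1.00 (adjusted p = 0.0191 by edgeR). That call was lost in 7 of 34 alternative settings, among them leaving out kidney 3, with values from -5.01 to -2.76 and adjusted p up to 0.202. The 2 distal convoluted tubule markers, summed, ran from 402.1 to 940.3, from 1.89 to 958.5 and from 27.2 to 536.7 CPM over the libraries of the 3 groups, and their part in the S100g result was not tested.

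S100a8 and S100a9 encode calprotectin, the abundant alarmin of neutrophils and monocytes. S100a8 averaged 2.98 ± 2.50, 0.957 ± 1.22 and 7.28 ± 7.64 CPM (SD, n = 3 kidneys), with F4/80-high libraries from 0.102 to 23.0 CPM. It was higher in F4/80-high than in F4/80-low regions by 3.00 ± 0.40 (adjusted p = 0.00178) and S100a9 by 2.15 ± 0.64 (adjusted p = 0.0356, both by edgeR). The S100a8 rise over non-cystic regions, 1.08 ± 0.36 (adjusted p = 0.0365), was lost in 17 of 34 alternative settings, and the S100a9 call in 15 of 33. The 8 neutrophil markers summed to 0.455 to 3.35, 0.449 to 4.51 and 3.57 to 10.6 CPM in the 3 region types. Of these, 3 passed the filter, Camp and Ngp were at 0 in non-cystic and F4/80-low libraries, and their part in these results was not tested.

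Most S100 genes lie in a cluster on chromosome 3, where S100a1 was the only listed gene called lower in F4/80-high against non-cystic regions. On GRCm38, S100a1 (minus strand, 90511034 to 90514392) and S100a13 (plus strand, 90514435 to 90524581) lie head to head, and the former was lower and the latter higher in F4/80-high regions. S100a4 (90603771 to 90606045) and S100a6 (90612882 to 90624181) rose, while S100a5 between them was filtered out with no more than 1 count in any region type. S100a11 (93520488 to 93526287) and S100a10 (93555080 to 93564643) form a separate pair further along the chromosome, and Anxa5 (36448923 to 36475894, minus strand) lies elsewhere on it. The other annexins are dispersed: Anxa1 on chromosome 19 (20373428 to 20390944, minus strand), Anxa2 on chromosome 9 (69453620 to 69491795, plus strand), Anxa3 on chromosome 5 (96793339 to 96845966, plus strand) and Anxa4 on chromosome 6 (86736840 to 86793584, minus strand).

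**Figure D4:**
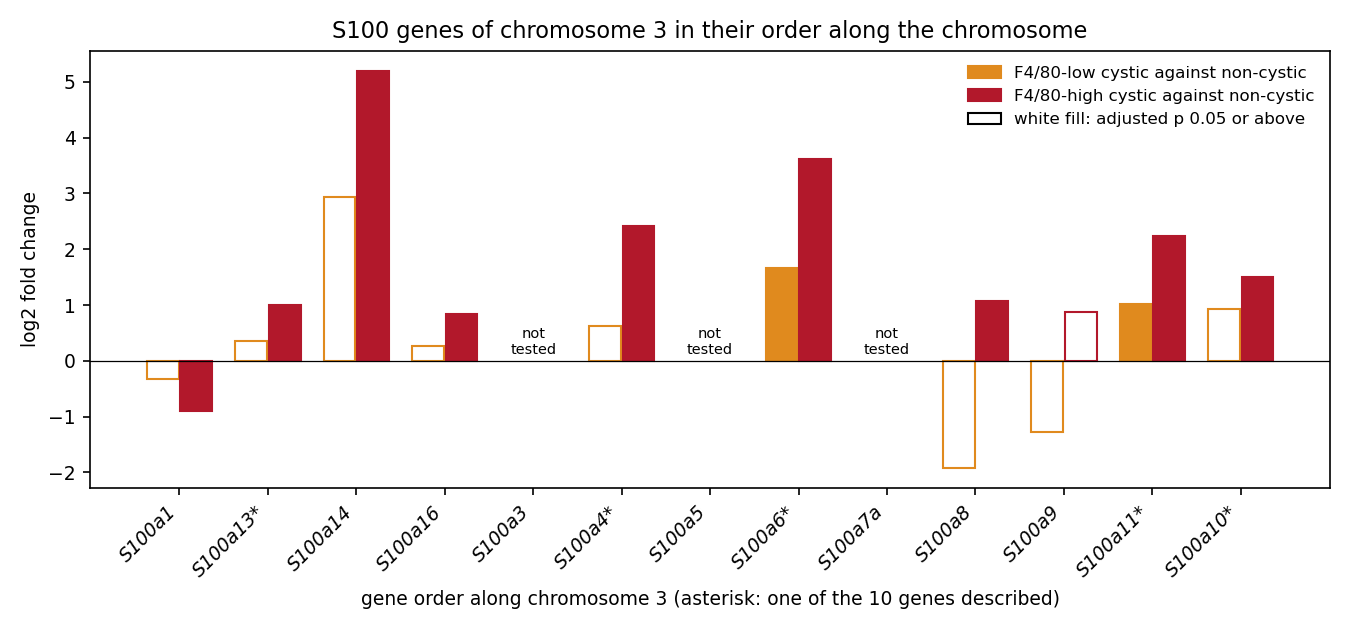
Log2 fold change (vertical axis) of 13 listed S100 genes of chromosome 3 in their order along the chromosome, for F4/80-low and F4/80-high cystic against non-cystic regions; filled bars have an adjusted p below 0.05. S100a1 is the only filled bar below 0, and 3 genes were not tested.

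Of the 7 other annexins, 6 passed the filter, and none was called in F4/80-low against non-cystic regions by edgeR, where 2 had an unadjusted p below 0.05 (11.7% of all tested genes). In F4/80-high against non-cystic regions, with 19.7% of all tested genes higher and 19.5% lower, Anxa6 (1.52 ± 0.23, adjusted p = 0.00102) and Anxa8 (4.22 ± 1.09, adjusted p = 0.0131) were higher. Anxa8 had 6 counts over all libraries of each of the non-cystic and F4/80-low groups and 179 in the F4/80-high group, with kidneys at 4.42, 0.644 and 4.53 CPM. It passed the filter only through the group where it was high, so its calls are not independent of that filter. The gene was tested in 28 of the 34 alternative settings, and this call was lost without kidney 2. Anxa13, the annexin of intestinal and renal epithelium, fell by 1.82 (SE 0.23, adjusted p = 0.000427 by edgeR), its CPM going from 20.0 ± 2.26 to 12.4 ± 1.72 to 5.87 ± 2.20 (SD, n = 3 kidneys). Anxa6, Anxa8 and Anxa13 were called in the same directions in F4/80-high against F4/80-low regions, although Anxa13 was at -0.62 there (adjusted p = 0.118) under scaling by total counts. Anxa7, Anxa9 and Anxa11 were called in no comparison, and Anxa10, removed by the filter, had 6 counts in F4/80-low and 0 in all other libraries.

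Known partners, receptors and ligands of these proteins were read from a list of 20 genes, of which 19 passed the filter. In F4/80-high against non-cystic regions 11 were higher and 1 was lower, against 19.7% and 19.5% of all tested genes. In F4/80-low against non-cystic regions none was called by edgeR, where 4 had an unadjusted p below 0.05, as did 11.7% of all tested genes. Ahnak, the scaffold that holds the S100A10 and annexin A2 complex at the membrane, rose by 1.95 ± 0.31 (adjusted p = 0.00144). Of the plasminogen system, Plat (tissue plasminogen activator) rose by 2.46 ± 0.60, Plaur (urokinase receptor) by 2.70 ± 0.51 and the plasminogen receptor Plgrkt by 0.55 ± 0.14 (adjusted p = 0.0181, 0.00282 and 0.0134 by edgeR). Plaur averaged 0.721, 3.72 and 4.26 CPM in the 3 groups, on 28, 163 and 243 counts, so its mean in F4/80-low regions was already near that in F4/80-high regions. Plau (urokinase) was not called in F4/80-high against non-cystic regions, at 0.13 ± 0.27 (adjusted p = 0.745 by edgeR). Plasminogen itself, Plg, was removed by the filter, with 4, 17 and 2 counts in the 3 groups.

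The formyl peptide receptors that bind annexin A1 peptides were both higher in F4/80-high than in non-cystic regions, Fpr1 by 2.73 ± 0.88 and Fpr2 by 2.78 ± 0.89 (adjusted p = 0.0342 and 0.0322 by edgeR). Each call was lost in 6 of 33 alternative settings, among them leaving out kidney 1 or kidney 2, with values from 2.15 to 4.72 for Fpr1 and from 1.92 to 7.45 for Fpr2. A single library held 16 of the 20 non-cystic Fpr1 counts and 11 of the 15 Fpr2 counts. Ager (2.88 ± 0.76) and Tlr4 (1.63 ± 0.50), receptors for released S100 proteins, were higher too (adjusted p = 0.0138 and 0.0272). Myh9, the non-muscle myosin bound by S100A4, rose by 1.21 ± 0.29, and Pla2g4a, the phospholipase that annexin A1 restrains, by 2.19 ± 0.39 (adjusted p = 0.00971 and 0.00268). Trpv6, a calcium channel brought to the membrane by S100A10 and annexin A2, rose by 3.15 ± 0.70 (adjusted p = 0.00627 by edgeR). Trpv6 had 15, 23 and 200 counts over the 6 libraries of each group and passed the filter mainly through the F4/80-high group. It was tested in 29 of the 34 alternative settings. Trpv5, also on the list and with more counts, was not called in this comparison and averaged 11.8, 3.83 and 11.6 CPM. Fgf1, the cargo of S100A13, fell by 1.08 (SE 0.22, adjusted p = 0.00445 by edgeR) while S100a13 rose, and its value was -0.47 under scaling by total counts.

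In F4/80-high against F4/80-low regions 5 of the 19 partners were higher: Fpr1 (4.25), Trpv6 (2.99), Pla2g4a (1.77), Tlr4 (1.60) and Ahnak (1.25), and Fgf1 was lower (-1.24), beside 10.3% higher and 14.0% lower over all tested genes. The Tlr4 call in that comparison was lost in 15 of 34 alternative settings. Fpr1 rests on 20, 7 and 186 counts over the 6 libraries of each group, so it passed the filter mainly through the F4/80-high group.

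Markers of several cell types moved with the S100 and annexin genes. The 12 macrophage markers summed to 74.7 to 150.1, 209.9 to 664.4 and 1079 to 2956 CPM per library, and none was at 0 over a group. The 7 fibroblast markers summed to 57.7 to 97.8, 193.3 to 560.9 and 680.4 to 1977 CPM. The 6 injured tubule markers summed to 4.02 to 19.3, 46.1 to 1262 and 728.9 to 1311 CPM, and the 7 lymphocyte markers to 4.09 to 14.1, 7.08 to 24.1 and 44.9 to 82.5 CPM. The 3 urothelial markers stayed at or below 1.60 CPM in sum in every library, and the 6 endothelial markers overlapped between region types (146.9 to 250.7, 181.7 to 385.0 and 117.2 to 455.7 CPM). The part of these cell types in the results was not tested.

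Pairs of libraries from the same kidney and region type hold the region label constant. Over the 9 pairs, the log2 difference between replicate 2 and replicate 1 in S100a6 followed that of the macrophage sum (Pearson r = 0.915) and that of the injured tubule sum (0.846). For S100a11 r was 0.857 with the macrophage sum and 0.686 with the injured tubule sum, and for Anxa2 it was 0.754 and 0.907. Other sums gave values for S100a6, S100a11 and Anxa2 too. They were 0.610, 0.562 and 0.536 with fibroblast markers and 0.589, 0.658 and 0.278 with principal cell markers. With proximal tubule markers they were -0.187, -0.248 and -0.331. These values are descriptions over 9 pairs from 3 kidneys, with no test. Without the F4/80-low pair of kidney 2 they were 0.865 for S100a6 with the macrophage sum, 0.824 for S100a11 with the macrophage sum and 0.784 for Anxa2 with the injured tubule sum. Without the 2 pairs farthest from the median of each sum they were 0.693, 0.824 and 0.835, and Anxa2 with the macrophage sum fell to 0.395. S100a6 with the injured tubule sum was then 0.936, above its value with the macrophage sum. Both sets of pairs left out were chosen after seeing the data.

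For S100a13 the values with the macrophage and injured tubule sums were 0.141 and 0.344, and for S100a4 0.428 and 0.305. Anxa4 had 0.369 and 0.515, Anxa1 0.512 and 0.408, and S100a10 0.577 and 0.687. Those of Anxa3 were 0.709 and 0.796, and those of Anxa5 0.733 and 0.629. Among the members, Anxa3 differed within pairs most like Anxa2 and Anxa5 (r = 0.918 with each). The F4/80-low pair of kidney 2 had 9 of the 10 genes higher in replicate 2, by a median of 0.55, and the F4/80-low pair of kidney 3 had 9 of the 10 lower, by a median of 1.04 (written as replicate 2 minus replicate 1, -1.04). In both pairs the macrophage sum moved the same way, by 1.43 and -1.34, and so did the injured tubule sum, by 4.77 and -1.27. Not every pair did so. In the F4/80-high pair of kidney 1 the macrophage sum differed by 0.78 and the injured tubule sum by 0.85, while 7 of the 10 genes were lower (median -0.40). In the non-cystic pair of kidney 3, 7 of the 10 were lower (median -0.55). There the injured tubule sum was lower too, by -0.98, while the macrophage sum differed by 0.06.

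**Figure D5:**
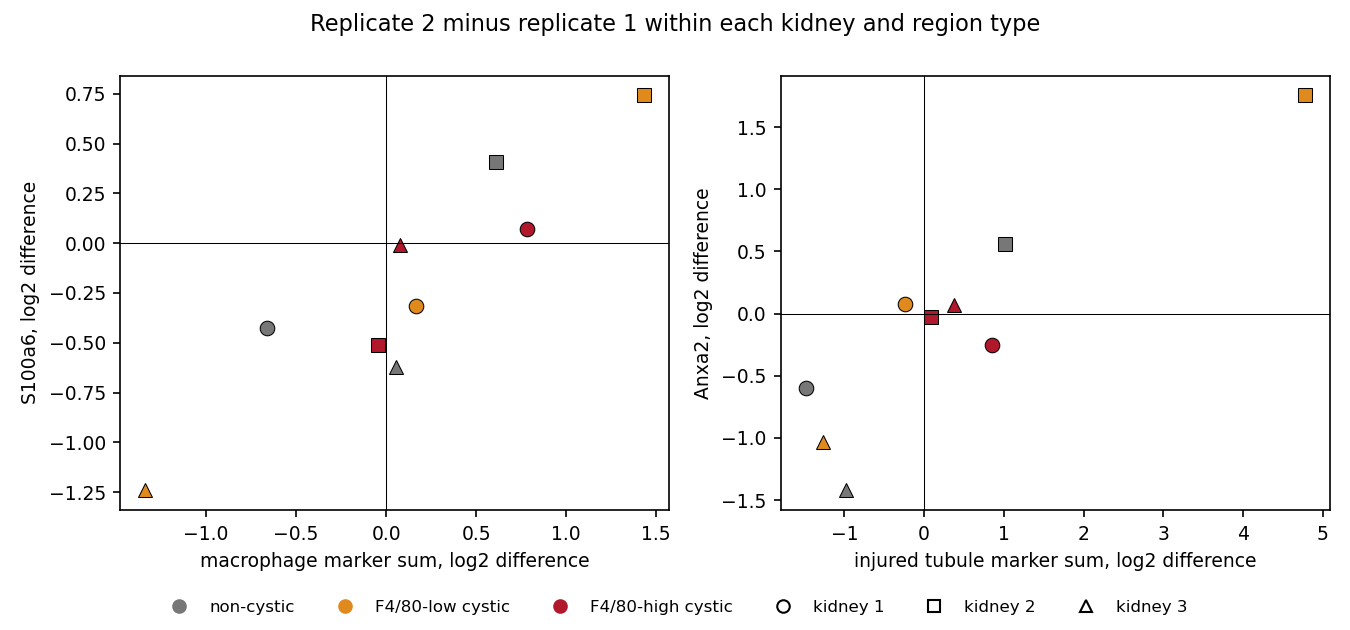
Difference between replicate 2 and replicate 1 in log2 CPM within each kidney and region type, for S100a6 against the macrophage marker sum and for Anxa2 against the injured tubule marker sum; colours give the region type and shapes the kidney. The F4/80-low pair of kidney 2 lies at the upper right of both panels, at 4.77 on the injured tubule axis.

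Across the 9 sums with the kidney mean removed, S100a6 and S100a11 had the most similar patterns (r = 0.997), and S100a10 and Anxa4 the least similar (0.600). The gene outside these families that was most like each member was Lhfp for S100a6 (0.998), Tyrobp for S100a11 (0.998), Kctd10 for S100a4 (0.997), Cd14 for S100a10 (0.992) and Stmn1 for S100a13 (0.997). For the annexins it was Vgll4 for Anxa1 (0.999), Tgfbr2 for Anxa2 (0.999), Tubb5 for Anxa3 (0.996), Hyls1 for Anxa4 (0.997) and Casp2 for Anxa5 (0.993). Tyrobp and Cd14 belong to the macrophage marker list used here. High values are common over so few points: each member had between 54 and 412 of 8568 candidate genes above 0.95, with Anxa4 the fewest.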

How the data were processed

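RNA was sequenced from 18 microdissected kidney libraries made, per the labels' protocols, with NEBNext low-input reagents, which keep no strand information. The authors deposited raw counts per gene, not normalized. The submitters' processing notes name HTSeq 0.11.0, fastp 0.20.1, FastQC 0.11.9 and the mm10 build. The sources used here give no aligner, annotation release or strand setting. The 2 libraries of each kidney and region type were summed to 9 sums and fitted in R 4.3.3 with edgeR 4.0.16 (TMM factors, filterByExpr, robust quasi-likelihood test, kidney as a block because the region types come from the same kidneys, 4 residual degrees of freedom). The 16034 genes kept held 99.8% of the counts. CPM use TMM-scaled totals, exon lengths are unions of GENCODE M21 exons (GRCm38), and promoters are RefSeq's. Intervals and limits at 0 cover counting error only. DESeq2 1.42.0, limma 3.58.1 voom, other scalings, filters, blocks and left-out libraries were alternatives. All 10 members, other family genes and partners that were called or filtered out, and the nearest gene per member are named. Members and lists were chosen with earlier results of these data known.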

Additional observations from a re-analysis of the deposited data

Results flagged for a closer look

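In 30 groups of 6 libraries (10 genes in 3 region types), 2 held a library whose gap to the nearest other value exceeded Dixon's 95% limit for 6 values; chance gives about 1 in 20. S100a11 in F4/80-high regions was lowest in kidney 1, replicate 1, at 107.5 CPM, with the next value at 230.8 CPM. The gap was 0.779 of the range, both taken in log2 CPM. S100a13 in non-cystic regions was lowest in kidney 1, replicate 2, at 21.6 CPM, with the next value at 37.2 CPM (gap 0.776 of the range in log2 CPM). Both libraries are from kidney 1 and differ from each other in region type.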

How the results depend on the processing

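Over 34 alternatives, the fitted direction of all 10 genes was kept in the 3 comparisons between region types. In F4/80-low against non-cystic regions, 3 genes of the 10 were called; DESeq2 size factors, upper-quartile factors and the libraries labelled replicate 1 alone gave 1, replicate 2 alone 0, DESeq2's Wald test 6, and the 3 fits of 18 single libraries 5. Leaving out a kidney or library gave 0 to 5 there, 9 to 10 in F4/80-high against non-cystic and 3 to 10 in F4/80-high against F4/80-low regions, where replicate 2 alone gave 4. The step difference, with 0 of 10, gave 1 (Anxa4) in the 3 fits of single libraries. The cause was not tested.

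Genes called over the whole table in F4/80-low against non-cystic regions numbered 246, and 523 without a filter, 675 with DESeq2, 601 with 18 libraries and the kidney as block, 522 with the replicate number added, 33 and 46 from replicate 1 and replicate 2 alone, and 23 to 578 when a kidney or library was left out. The 6289 genes in F4/80-high against non-cystic regions became 3707 from replicate 1 alone and 3359 to 6550 with a kidney or library left out. The 3895 genes in F4/80-high against F4/80-low regions became 5922 with voom, 2413 with only those region types, 1905 and 2575 from replicate 1 and 2 alone, and 988 to 4214 with a kidney or library left out. The 4 step-difference genes became 7 with total counts, 224 without a filter, 353 with DESeq2, 607, 519 and 476 in the 3 fits of single libraries, 1 from replicate 1 alone and 0 to 97 with a kidney or library left out.

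Without the replicate block (the kidney), the counts were 262, 6355, 4034 and 5 genes and 3, 10, 9 and 0 of the 10, so no count moved by over 1.5 times. The 3 called in F4/80-low against non-cystic regions were then others in part: S100a11 lost its call (adjusted p = 0.0733) and Anxa3 gained one (adjusted p = 0.0473). No other call of the 10 genes changed with the pairing. Among the 10 genes, signs changed only in step differences, none of them called: S100a10 gave 0.0324 with total counts, and Anxa3 and S100a13 gave -0.28 and -0.0357 from replicate 2 alone. With a kidney or library left out these ran from -0.0703 to 0.72 for S100a6, -0.73 to 0.0549 for S100a10, -0.14 to 0.55 for S100a11, -0.0553 to 2.72 for Anxa1 and -0.80 to 0.56 for Anxa3.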
